A study of Mus musculus with 8 samples.

Results

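Sorted CD45+/CD11b+ cells from mouse sciatic nerves were compared between partial sciatic nerve ligation (PSNL) and nerve crush 1 week after injury, with neutrophils left out. The comparison asked how the myeloid cells of a nerve that is tied and stays tied differ from those of a nerve that is crushed once and can regrow. Cells of 2 single-cell RNA libraries were used, 1 that pooled PSNL with sham nerves and 1 that pooled crush with sham nerves. Oligonucleotide-tagged antibodies (hashtags) mark the sample that a cell came from, and a cell was kept if 1 injury hashtag alone was above its threshold, if it had 500 or more genes and under 10% mitochondrial UMIs (unique molecular identifiers, each standing for 1 captured RNA molecule), and if S100a8 and S100a9 together made up under 1% of its UMIs. This left 2043 of 9133 barcodes in the whole series and of 4391 in the libraries at 1 week: 383 from PSNL females, 750 from PSNL males, 325 from crush females and 585 from crush males. UMIs were summed over the cells of each hashtag, so that 2 PSNL samples stood against 2 crush samples.

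All mice were C57BL/6JolaHsd, bought at 7 weeks of age, with each injury in both sexes. For PSNL a part of the exposed sciatic nerve was tightly tied with suture, for crush the nerve was squeezed with forceps, and for sham it was exposed and left intact. Isoflurane and buprenorphine were shared by all groups, and the mice were perfused with saline before CD45+/CD11b+ cells were sorted from the nerve, with Ly6G+ cells gated out at 1 week. The sources do not say if the cells of a hashtag came from a single animal or a pool, so the p-values measure the spread between these samples, which may be technical in part. PSNL and crush also coincide with the library, although the labels place both libraries in the same batch, so injury and library cannot be told apart from the injured samples alone. The same filters left 62 sham cells in the PSNL library, from females, and 95 in the crush library, from males. They are given as background values.

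After a nerve injury the resident macrophages of the nerve are joined by monocytes from the blood, which turn into macrophages that clear myelin and axon debris. Such macrophages can present antigen on MHC class II, secrete cytokines and chemokines, take up and export lipid and iron, and remodel the matrix through which axons regrow. Hypoxic tissue adds a programme of glucose uptake and glycolysis under the transcription factor Hif1a. The sorted population can also hold dendritic cells, eosinophils and remaining neutrophils.

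The hashtags matched their labels by sex. Xist, transcribed from the inactive X chromosome of females, was at 826 and 1082 CPM (the UMIs of a gene scaled to the same total of UMIs in each sample) in the female samples and at 1.06 and 0.286 CPM in the male samples, and the Y-linked Ddx3y was at 0 and 1.36 against 53.4 and 60.3 CPM. Summed UMIs were between 2101335 and 4702964 per injured sample, with medians of 4849 to 5603 UMIs per cell. The neutrophil filter did not act equally, as it removed 28.0% and 14.2% of the cells of the PSNL samples and 1.81% and 3.31% of those of the crush samples. The kept cell nearest to the limit held between 0.158% (crush females) and 0.999% (PSNL males) of its UMIs in S100a8 and S100a9, and the nearest cell left out held between 1.02% and 2.17%. Barcodes with several hashtags, 28.9% of the PSNL library and 26.9% of the crush library, were left out. They held C1q RNA more often (78.6% and 81.7%) than those with a single hashtag (38.3% and 43.8%). The RNA quality marker Gm42418, which overlaps ribosomal RNA, took 13.4% and 10.0% of the UMIs in PSNL and 13.04% and 7.30% in crush.

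Markers of other cell types were checked by list. Of the 21 neutrophil markers 11 could be tested and 3 passed, all higher in PSNL (Mmp8, Hdc and Il1r2). The summed level of the 21 was 549 and 565 CPM in PSNL and 281 and 647 CPM in crush. Ngp, Camp, Elane and Mpo were at 0 in all 4 samples. The 21 include S100a8 and S100a9, which the filter itself limits, so the list and its sum are no independent check for neutrophils. After the filter S100a8 was at 148 and 181 CPM in PSNL and at 4.07 and 32.3 CPM in crush. S100a9 was at 153 and 170 against 2.26 and 27.4 CPM. Of 10 dendritic cell markers 7 were lower in PSNL (Flt3, Zbtb46, Cd209a, Clec9a, Xcr1, Dpp4 and Kmo), summed 527 and 484 against 864 and 1007 CPM. The eosinophil markers Siglecf and Alox15 were lower too, 2 of 4 tested, summed 60.9 and 67.2 against 182 and 163 CPM, with Epx at 0. Of 11 macrophage markers Itgam, Cd68 and Lyz2 were higher and Ptprc and Mertk lower in PSNL, and all 11 were high enough to be tested. Il7r was higher and Gzma lower among 5 lymphoid genes tested, Ighm was lower among 2 B cell genes, and Kit was lower as the single mast cell gene tested. None of the 2 Schwann cell, 3 fibroblast and 2 endothelial genes tested passed edgeR's test. Of these, 3 fibroblast, 1 Schwann cell and 1 endothelial gene had an unadjusted p under 0.05, and DESeq2 called 2 fibroblast genes, higher in PSNL. No haemoglobin gene could be tested. In summed counts fewer cells of a type and less RNA per cell cannot be told apart, and the part of these cell types in the differences below was not tested beyond the values given beside them.

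Of 9763 genes tested, 843 (8.63%) were higher and 752 (7.7%) lower in PSNL than in crush at an adjusted p under 0.05 in edgeR's quasi-likelihood test, and these shares are the background for every count below. At least a 4-fold difference was found in 178 of the genes that rose and in 130 of those that fell. All log2 differences below are PSNL minus crush, and their median over the genes tested was -0.04. The 2 samples of an injury did not overlap with those of the other in all 1595 called genes, but this also held for 6130 of the 9763 genes tested (62.8%). The chi-square per degree of freedom was 6.55 between the PSNL samples and 16.9 between the crush samples, so none was a copy of another. It treats each UMI as an independent draw, while UMIs come grouped in cells. It thus cannot show a difference beyond the draw of cells.

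The number of calls fell most when the PSNL males were left out. Without them 31 of the 1595 calls remained, without the PSNL females 147, without the crush females 1539 and without the crush males 1368. The direction was kept by 1579 of the 1595 without the PSNL males. Without a PSNL sample the spread within an injury comes from the crush pair alone, and without a crush sample from the PSNL pair alone. The median prior degrees of freedom, the weight given to the spread shared over genes, also differed. They were 4.05 and 4.17 without the PSNL females and males, 221 without the crush females and infinite without the crush males. So a call lost without the PSNL males does not show that they carried the difference. Of the 31 genes called whichever sample was left out, 26 rose in PSNL: Mxd1, Mefv, C5ar1, Ftl1-ps1, Ets2, Mmp14, Ell2, Tgm2, Sdc4, Thbs1, Bnip3, Cd14, Slc7a11, Il1rn, Ier3, Ifitm1, Id3, Ccl7, Gm26870, Clec4e, Clec4d, Nt5e, Dmkn, Cxcl3, Cav1 and Cxcl1. The 5 that fell were Gzma, Mgl2, H2-Oa, H2-DMb2 and Top2a. When the sham samples were added and library became a term of the model, 37 of the 1595 calls held (25 higher and 12 lower), 9 of them among the 31. That term is estimated from 62 female and 95 male sham cells alone, so it also carries the sex of the sham samples.

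**Figure D1:**
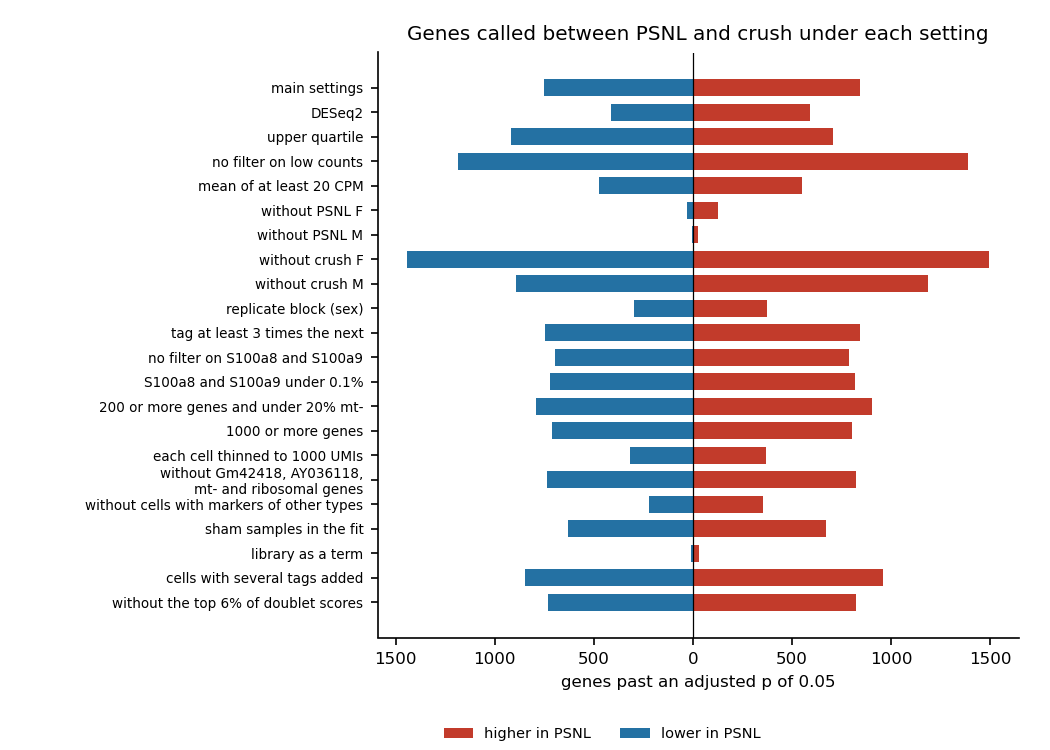
Number of genes called higher (red, to the right) and lower (blue, to the left) in PSNL than in crush under each setting, counted at an adjusted p of 0.05. The fit without the PSNL males called 26 and 5 genes and the fit with library as a term 28 and 12, against 843 and 752 with all 4 samples.

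The genes with the largest rise in PSNL were headed by Arg1, the arginase that turns arginine into ornithine and marks alternatively activated macrophages (chromosome 10, 24915221 to 24927484, GRCm38). It was at 920.4 CPM in the PSNL females and 1340 CPM in the males, and at 2.26 and 7.42 CPM in crush. The sham samples held 16.3 and 0 CPM. Arg1 was thus high in both PSNL samples and low in both crush samples and in sham, with a log2 difference of 7.86 (SE 0.566, adjusted p = 0.00533). The call was lost without the PSNL males (adjusted p = 0.0595, log2 difference in the same direction), and with library as a term the log2 difference was -0.37 (adjusted p = 0.95), where the term rests on 4 Arg1 UMIs in sham females and 0 in sham males. Over 21 alternatives the adjusted p ranged from 1.47e-97 to 0.95.

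Clec4d and Clec4e are neighbours on chromosome 6 (123262111 to 123275265 and 123281789 to 123289870, GRCm38) and encode C-type lectin receptors that sense glycolipids of microbes and of dying cells. Clec4d was at 371 and 482 CPM in PSNL and at 14.0 and 14.6 CPM in crush, a log2 difference of 4.99 (SE 0.216, adjusted p = 0.000143). Clec4e was at 276 and 351 CPM in PSNL and at 10.9 and 12.6 CPM in crush, a log2 difference of 4.82. Both rose in PSNL under all 21 alternatives, with an adjusted p of at most 0.0114 for Clec4d and 0.0185 for Clec4e. The related Clec4n on the same chromosome stood at 222 and 275 against 20.4 and 9.42 CPM, a log2 difference of 4.20, and its call was lost without the PSNL males (adjusted p = 0.0839), without the filter on S100a8 and S100a9 (log2 difference 3.59, adjusted p = 0.0603) and with library as a term (adjusted p = 0.105). Neutrophils also express Clec4d and Clec4e. With the limit on S100a8 and S100a9 set at 0.1% of the UMIs instead of 1%, the log2 differences were 5.34 and 5.23.

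The chemokine genes Cxcl1 and Cxcl3, whose products attract neutrophils, lie together on chromosome 5 (90891241 to 90893115 and 90786103 to 90789600). Cxcl1 was at 147 and 181 CPM in PSNL and at 0.905 and 1.71 CPM in crush. Cxcl3 was at 365 and 591 CPM in PSNL and at 5.88 and 6.57 CPM in crush. In the sham samples Cxcl1 had 4.07 and 1.71 CPM and Cxcl3 0 and 6.82 CPM. There 3 UMIs make 12.2 CPM in females and 5.12 CPM in males, so crush cannot be placed against sham for these genes. The log2 differences of Cxcl1 and Cxcl3 were 6.94 (SE 0.29) and 6.34 (SE 0.329). The highest adjusted p without any 1 sample was 0.00969 for both genes, although library as a term ended both calls (adjusted p = 0.234 and 0.0796).

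Further genes of this group work at the cell surface or in the matrix. Pdpn, the membrane glycoprotein podoplanin, had a log2 difference of 7.32 and Cav1, the caveolin of membrane pits, one of 6.76. Timp1, an inhibitor of matrix metalloproteinases, was at 80.9 and 99.5 CPM in PSNL and at 2.71 and 0.571 CPM in crush (log2 difference 6.04). Vegfa, the angiogenic growth factor, was at 179.9 and 315 CPM in PSNL and at 12.7 and 4.57 CPM in crush (log2 difference 5.03). The genes of this group were chosen for PSNL and crush samples that do not overlap. Slpi, a protease inhibitor of myeloid cells and epithelia, Id3, an inhibitor of helix-loop-helix factors, Ifitm1, a membrane protein, and Ccl7, a monocyte chemokine, rose by between 3.89 and 4.25 on the log2 scale, as did the transcript Gm26870 by 4.30. Without the PSNL males Pdpn, Timp1, Vegfa and Slpi no longer passed (adjusted p between 0.0575 and 0.156), and with library as a term the log2 difference of Pdpn was -0.49.

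The genes that fell most had other roles. Fgfr1, a fibroblast growth factor receptor, was at 7.14 and 5.53 CPM in PSNL and at 139 and 70.8 CPM in crush (log2 difference -3.99). Mgl2, a galactose-binding lectin of dermal dendritic cells and alternatively activated macrophages, was at 5.24 and 12.1 CPM in PSNL, at 105 and 112 CPM in crush and at 876 and 579.7 CPM in sham (log2 difference -3.43). Mgl2 was thus lower after both injuries than in sham, and lower in PSNL than in crush. Plxdc2, Pdcd4, Ppfia4, Abca9 and the tetraspanin Cd81 fell by between 2.28 and 2.99 on the log2 scale. Hpgd, which inactivates prostaglandins, was at 9.99 and 7.02 CPM in PSNL, at 52.5 and 52.3 CPM in crush and at 261 and 142 CPM in sham. Gzma, the granzyme of cytotoxic lymphocytes, had no UMI in PSNL, which allows up to 1.43 and 0.638 CPM, and was at 34.4 and 33.7 CPM in crush. It was chosen here after its values were seen. Of the 15 largest falls, Mgl2, H2-Oa, H2-DMb2 and Top2a passed without each of the samples in turn, and the other 11 were lost without the PSNL males (adjusted p 0.0507 to 0.147).

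**Figure D2:**
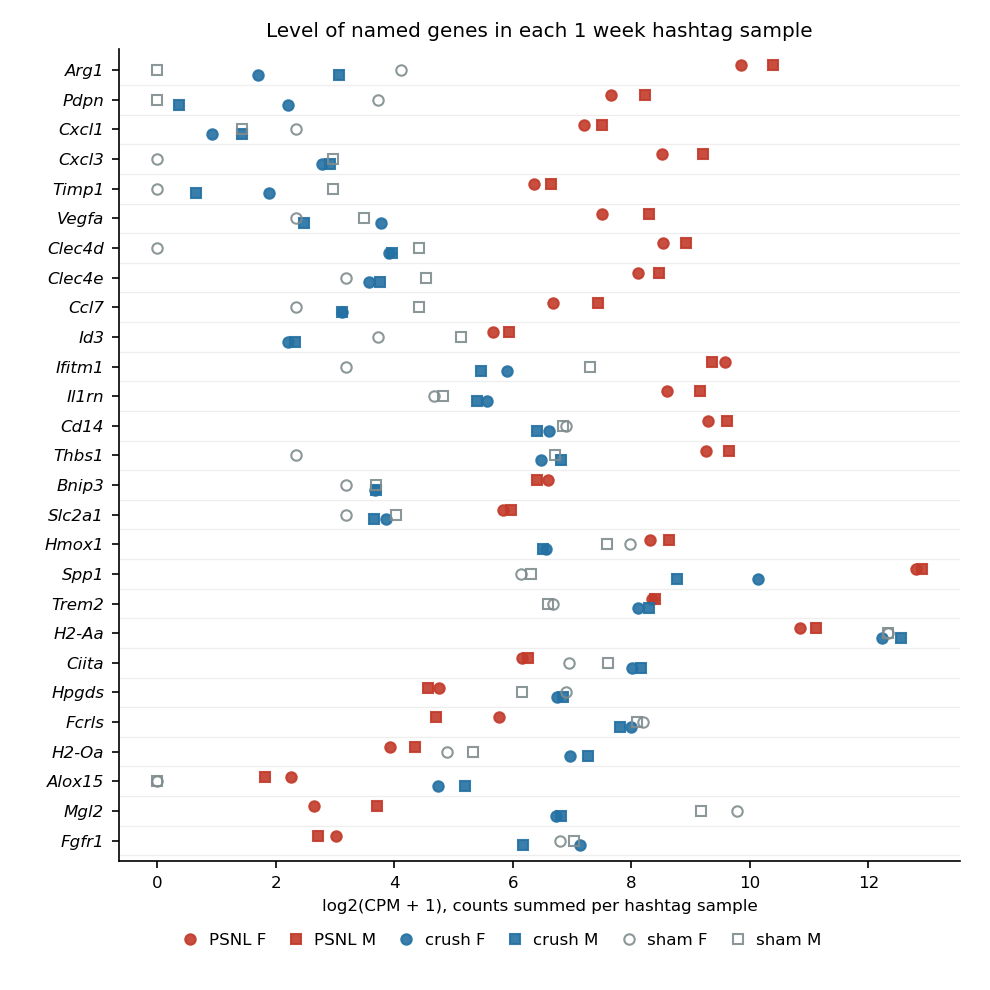
Levels of named genes in each hashtag sample on a log2(CPM + 1) axis, with female and male samples of PSNL, crush and sham as separate points. The largest rises and falls were chosen for samples that do not overlap between PSNL and crush, and the widest gaps are those of genes low in crush, such as Cxcl1 at 147 and 181 against 0.905 and 1.71 CPM.

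Genes of MHC class II, which present peptides of engulfed proteins to CD4 T cells, were lower in PSNL. Of 11 members 10 fell and the cathepsin Ctss did not pass, with a median log2 difference of -1.35 against -0.04 over all genes. The alpha chain H2-Aa was at 1849 and 2222 CPM in PSNL and at 4801 and 6008 CPM in crush, against 5135 and 5127 CPM in sham. Crush was thus near sham and PSNL below both (log2 difference -1.31, SE 0.159, adjusted p = 0.004). Ciita, the co-activator that switches the class II genes on, was at 70.4 and 75.7 CPM in PSNL and at 257 and 287 CPM in crush (log2 difference -1.80). H2-Ab1, H2-Eb1, Cd74 and the peptide loading genes H2-DMa and H2-DMb1 fell by between 1.12 and 1.58 on the log2 scale. The members with the largest fall were those of H2-DO, the inhibitor of peptide loading in B cells and dendritic cells, H2-Oa with -2.91 and H2-Ob with -2.29, and H2-DMb2 with -2.45. H2-Oa was at 14.3 and 19.4 CPM in PSNL, at 124 and 153 CPM in crush and at 28.5 and 39.2 CPM in sham. For this gene crush was thus above sham, with PSNL below it. The 11 members summed to 13644 and 15372 CPM in PSNL, 31012 and 37374 CPM in crush and 27395 and 32648 CPM in sham. H2-DMb1 and H2-DMb2 are near-identical copies whose reads counting could split. The list's fall held without the PSNL females for 3 members and without the PSNL males for 2 (H2-Oa and H2-DMb2), with adjusted p of the others between 0.0503 and 0.162, and with library as a term for 0 of the 10, all 10 in the same direction.

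The class II genes are known to be driven through a promoter module that ends in a CCAAT box (ATTGG on the other strand), bound by the factor NF-Y. In RefSeq promoters of 300 bases CCAAT was found on either strand in 7 of 9 promoters of the list (77.78%, with 8 of the 11 genes matched) and in 12289 of 32851 promoters of all genes (37.41%). The 200 bases before the RefSeq start of 4 members that fell are shown 5′ to 3′ on the gene's strand, with CCAAT or ATTGG in capitals, for H2-Aa (chr17:34287824-34288023, minus strand), H2-Eb1 (chr17:34305667-34305866, plus strand), H2-Oa (chr17:34092179-34092378, plus strand) and H2-DMb2 (chr17:34145049-34145248, plus strand), all of GRCm38.p6.
H2-Aa: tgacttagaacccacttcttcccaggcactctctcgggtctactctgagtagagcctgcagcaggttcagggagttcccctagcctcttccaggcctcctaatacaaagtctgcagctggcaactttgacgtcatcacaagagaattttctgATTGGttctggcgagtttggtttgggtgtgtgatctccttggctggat
H2-Eb1: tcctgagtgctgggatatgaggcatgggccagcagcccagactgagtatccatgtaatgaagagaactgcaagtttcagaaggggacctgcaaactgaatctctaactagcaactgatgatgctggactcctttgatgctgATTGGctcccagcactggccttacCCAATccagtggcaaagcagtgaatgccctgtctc
H2-Oa: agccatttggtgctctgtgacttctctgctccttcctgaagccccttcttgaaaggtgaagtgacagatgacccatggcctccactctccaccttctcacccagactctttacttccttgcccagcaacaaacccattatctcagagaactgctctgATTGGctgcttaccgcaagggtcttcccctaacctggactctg
H2-DMb2: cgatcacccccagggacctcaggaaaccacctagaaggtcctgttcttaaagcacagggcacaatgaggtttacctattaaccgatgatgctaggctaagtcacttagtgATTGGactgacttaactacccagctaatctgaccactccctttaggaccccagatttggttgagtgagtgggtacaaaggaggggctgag
The first capital lies at -48 in H2-Aa, at -59 and -35 in H2-Eb1, at -43 in H2-Oa and at -90 in H2-DMb2, counted in bases from the start. A match describes the letters of this window and shows no binding.

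MHC class I genes, which present peptides made in the cell itself, gave no call among 9 tested (H2-K1, H2-D1, B2m, Tap1, Tap2, Tapbp, Psmb8, Psmb9 and Nlrc5), with a median log2 difference of -0.24. In edgeR's test 0 of them had an unadjusted p under 0.05 and DESeq2 called 0. H2-D1 was at 1551 and 1755 CPM in PSNL and at 1159 and 1613 CPM in crush, which overlapped. The hashtag antibodies bind MHC class I per the labels, so its surface level bears on which cells carry a hashtag.

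Among 17 genes of costimulation and dendritic cells 8 fell and 2 rose. Clec10a was at 50.4 and 70.2 CPM in PSNL and at 166 and 224 CPM in crush (log2 difference -1.59), and Batf3, a transcription factor of cross-presenting dendritic cells, at 23.3 and 27.4 against 112 and 74.5 CPM (log2 difference -1.76). Clec9a and Xcr1, which define those cells, were at 5.24 and 4.68 against 19.0 and 19.99 CPM and at 2.38 and 1.28 against 11.3 and 20.9 CPM. Flt3, Zbtb46, Cd209a and Irf4 were the other members that fell. Cd80 and Cd86, the ligands of CD28, went the other way and rose by 1.24 and 1.09. Of the 8 genes that fell, Flt3, Zbtb46, Cd209a, Clec9a and Xcr1 are also in the dendritic cell marker list above. None of the 10 calls held without the PSNL males, with adjusted p between 0.0839 and 0.241, and 1 held without the PSNL females.

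Inflammatory cytokine genes were higher in PSNL, 6 of 11 tested and 0 lower, with a median log2 difference of 2.15. DESeq2 also called 7 higher and 0 lower, and 0 had an unadjusted p under 0.05 for a fall. Il1rn, the antagonist of the interleukin 1 receptor, was at 388 and 568 CPM in PSNL and at 46.6 and 41.1 CPM in crush (log2 difference 3.54, SE 0.24, adjusted p = 0.000696). Il1b was at 438 and 734 CPM in PSNL, at 102 and 148 CPM in crush and at 77.4 and 305 CPM in sham (log2 difference 2.32, adjusted p = 0.0119). The agonist and its antagonist thus rose together. Tnf was at 42.8 and 73.6 against 14.47 and 16.6 CPM (log2 difference 2.02), and Nlrp3, the sensor of the inflammasome that matures interleukin 1 beta, at 66.2 and 60.4 against 19.9 and 31.1 CPM (log2 difference 1.38). Il1a and Lif were the other members that rose. Without the PSNL males the call held for Il1rn alone, with an adjusted p of 0.0753 to 0.27 for the rest, and without the PSNL females for 4 of 6. Il10, Il12b, Il23a and Nos2 were too low to be tested.

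Of 19 chemokine genes tested 7 rose (Ccl2, Ccl7, Ccl9, Ccl24, Cxcl1, Cxcl3 and Pf4), with a median log2 difference of 1.78 over all 19. Ccl7 was at 101 and 172 CPM in PSNL and at 7.69 and 7.71 CPM in crush (log2 difference 4.25). Ccl9 was at 896 and 1272 against 374 and 255 CPM (log2 difference 1.88). The platelet factor gene Pf4, a chemokine that resident macrophages also express, was at 1181 and 1628 CPM in PSNL, at 146 and 76.2 CPM in crush and at 1499 and 851 CPM in sham, so that PSNL was near sham and crush below it. Ccl7, Cxcl1 and Cxcl3 passed whichever sample was left out, while the other 4 had adjusted p of 0.0739 to 0.156 without the PSNL males, and Ccl2 also 0.173 without the crush females. Ccl3 and Ccl4 did not pass, as given below.

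Among 8 chemokine receptors Ccr1 rose, and Cx3cr1 and Cxcr3 fell. Ccr1, a receptor of Ccl7 and Ccl9, was at 217 and 200.3 CPM in PSNL and at 75.1 and 86.8 CPM in crush (log2 difference 1.45). Cx3cr1, the fractalkine receptor of patrolling monocytes and microglia, was at 161 and 103 CPM in PSNL and at 277 and 402 CPM in crush (log2 difference -1.28). Ccr2, the receptor that brings monocytes out of the blood, was at 499 and 319 against 544 and 649 CPM and did not pass (log2 difference -0.46, SE 0.222, adjusted p = 0.209). Cxcr3 was low, at 2.38 and 1.06 against 6.79 and 9.42 CPM. None of the 3 calls held without the PSNL males (adjusted p 0.0739 to 0.269) or without the PSNL females (0.0524 to 0.0951), and 1 was lost without the crush males (0.0995).

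Receptors and adaptors of the Toll-like pathway were higher in PSNL in 8 of 17 members (Tlr2, Tlr4, Cd14, Ly96, Irak3, Tnfaip3, Nfkbia and Nfkbiz), with 0 lower in edgeR, 2 with an unadjusted p under 0.05 for a fall, and 1 called lower by DESeq2. Cd14, the co-receptor that hands lipopolysaccharide to Tlr4, was at 624 and 782 CPM in PSNL, at 96.3 and 84.0 CPM in crush and at 118 and 114 CPM in sham (log2 difference 3.06, SE 0.194, adjusted p = 0.000569). Its highest adjusted p over 21 alternatives was 0.0317, and with library as a term it was 0.0312. Ly96, the partner of Tlr4, was at 58.5 and 44.2 against 16.7 and 22.0 CPM. Nfkbia and Tnfaip3, inhibitors that the pathway itself induces, rose by 1.46 and 1.01 on the log2 scale. Without the PSNL males Cd14 alone of the 8 held, with adjusted p of 0.0739 to 0.23 for the rest.

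Genes of glycolysis and of the hypoxia response rose in PSNL, 12 of 19 tested and 0 lower, with a median log2 difference of 1.39. DESeq2 also called 12 higher and 0 lower. The glucose transporter gene Slc2a1 was at 56.2 and 61.7 CPM in PSNL and at 13.6 and 11.7 CPM in crush (log2 difference 2.33, SE 0.194, adjusted p = 0.0012). Hif1a itself was at 335 and 352 against 108 and 100.2 CPM (log2 difference 1.82). Bnip3, a mitophagy receptor induced in hypoxia, was at 96.1 and 84.2 against 11.8 and 11.99 CPM (log2 difference 3.01). Along the pathway Pfkl, Gapdh, Pgk1, Pgam1, Pkm and Ldha rose, from phosphofructokinase to lactate dehydrogenase, and so did Slc16a3, which exports lactate, and Egln3, the prolyl hydroxylase that Hif1a induces. Pkm was at 733 and 876 against 254 and 217 CPM. Ldha was at 458 and 584 CPM in PSNL and at 247 and 214 CPM in crush (log2 difference 1.27). Pgk1 was at 362 and 459 against 140.2 and 86.8 CPM (log2 difference 1.95). The sham samples spanned 191 to 324 CPM for Ldha and 48.9 to 157 CPM for Pgk1, so crush was within the sham range for both. Gapdh and Pgk1 have pseudogene copies that counting may mix. Without the PSNL males Bnip3 alone held (adjusted p of the others 0.0595 to 0.201), without the PSNL females 4 held, and with library as a term Hif1a (adjusted p = 0.0318) and Pkm (adjusted p = 0.0247) held.

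Hif1a binds DNA at the core ACGTG, which was searched on both strands and reads CACGT on the other. The core was found on either strand in 18 of 32 RefSeq promoters of the list (56.25%, all 22 genes matched), in 11 of 15 promoters of its members that rose, and in 6447 of 32851 promoters of all genes (19.62%). The 200 bases before the start are shown as above, with the core in capitals, for the members Pgk1 (chrX:106186900-106187099, plus strand), Ldha (chr7:46845604-46845803, plus strand), Slc2a1 (chr4:119108545-119108744, plus strand) and Bnip3 (chr7:138909507-138909706, minus strand) of GRCm38.p6, chosen after the values were seen.
Pgk1: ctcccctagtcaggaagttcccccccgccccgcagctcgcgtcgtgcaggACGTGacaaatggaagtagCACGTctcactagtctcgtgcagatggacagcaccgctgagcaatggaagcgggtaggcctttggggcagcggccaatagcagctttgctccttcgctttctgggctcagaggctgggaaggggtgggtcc
Ldha: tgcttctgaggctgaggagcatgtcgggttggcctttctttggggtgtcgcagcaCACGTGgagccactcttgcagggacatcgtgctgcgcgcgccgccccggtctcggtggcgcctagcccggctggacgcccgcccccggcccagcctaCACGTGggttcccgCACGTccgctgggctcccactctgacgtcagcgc
Slc2a1: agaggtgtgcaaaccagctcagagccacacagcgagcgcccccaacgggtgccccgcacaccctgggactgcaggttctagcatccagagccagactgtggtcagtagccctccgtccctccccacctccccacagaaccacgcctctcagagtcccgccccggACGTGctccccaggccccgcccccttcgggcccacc
Bnip3: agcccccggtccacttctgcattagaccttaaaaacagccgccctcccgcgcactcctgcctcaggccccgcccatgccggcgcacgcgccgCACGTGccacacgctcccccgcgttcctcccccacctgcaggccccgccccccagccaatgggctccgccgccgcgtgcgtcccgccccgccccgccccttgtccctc
In Bnip3, and in 2 of the 3 stretches in capitals of Ldha, the core lies within CACGTG, which reads the same on both strands and so counts on each. The third stretch of Ldha holds CACGT alone. The other motifs searched stood at 11 of 17 promoters of the interferon-stimulated list for GAAANNGAA (64.71%, against 8.56% of all promoters), at 6 of 15 of the antioxidant list for TGACNNNGC (40%, against 12.39%), and at 4 of 15 of the matrix list and 4 of 14 of the cytokine list for TGANTCA (26.67% and 28.57%, against 7.808%). These shares describe the letters and were not tested.

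The nuclear genes of oxidative phosphorylation moved less. Of 17 members 6 rose (Ndufb8, Sdhb, Uqcrq, Cox6c, Cox7a2 and Atp5g1), by between 0.57 and 0.73 on the log2 scale, and the median was 0.39. Cox7a2 was at 367 and 406 CPM in PSNL and at 239 and 262 CPM in crush. None of the 6 held without the PSNL females or without the PSNL males (adjusted p 0.114 to 0.33), 3 held without the crush males, 1 of the 6 held without the filter on S100a8 and S100a9, and 0 held with sex as a term. The mitochondrially encoded mt-Co1 went the other way, at 3203 and 3095 against 5882 and 5827 CPM (log2 difference -0.80, adjusted p = 0.00677), and was lost without the PSNL females (adjusted p = 0.131) or the PSNL males (adjusted p = 0.176). Of the 13 mitochondrially encoded genes tested it was the 1 that fell and mt-Atp8, named after its values were seen, the 1 that rose (log2 difference 1.15, adjusted p = 0.0111, but -0.29 with library as a term), while 11 did not pass.

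Iron handling genes changed in both directions. Hmox1, which breaks down haem, was at 317 and 395 CPM in PSNL, at 93.6 and 90.5 CPM in crush and at 252 and 191 CPM in sham (log2 difference 2.05, SE 0.176, adjusted p = 0.00128). Blvrb, the next enzyme of haem breakdown, was at 177 and 283 against 50.2 and 44.5 CPM (log2 difference 2.38). Slc11a1, which pumps iron out of the phagosome, was at 177 and 186 against 38.9 and 28.0 CPM (log2 difference 2.54). The ferritin genes Fth1 and Ftl1 rose as well, by 1.33 for Fth1, though ferritin has many pseudogene copies, of which Ftl1-ps1 was also called. Cd163, the receptor for haemoglobin with haptoglobin, and Hfe fell. Cd163 was at 4.28 and 1.49 CPM in PSNL, at 21.3 and 25.7 CPM in crush and at 391 and 297 CPM in sham. In all 5 of 11 genes rose and 2 fell, of which 0 held without the PSNL males (adjusted p 0.0575 to 0.236) and 5 without the PSNL females.

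Among 14 metallothionein and antioxidant genes 9 rose and 0 fell, with a median log2 difference of 1.37, and DESeq2 called 8 higher and 0 lower. Slc7a11, the cystine transporter that feeds glutathione synthesis, was at 109 and 155 CPM in PSNL and at 18.5 and 14.0 CPM in crush (log2 difference 3.14). Txnrd1, the thioredoxin reductase, was at 126 and 163 against 45.2 and 38.5 CPM (log2 difference 1.89), and Sod2, the mitochondrial superoxide dismutase, at 157 and 215 against 54.7 and 42.8 CPM (log2 difference 2.03). Gclm, Srxn1, Prdx1, Prdx5, Gsr and Mt2 completed the members that rose. Slc7a11 alone held without the PSNL males (adjusted p of the others 0.0729 to 0.296), and 4 held without the PSNL females.

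Matrix genes were higher in PSNL in 8 of 17 members, with a median log2 difference of 2.02 and 0 lower. Thbs1, the matrix glycoprotein thrombospondin, was at 615 and 797 CPM in PSNL, at 88.2 and 111 CPM in crush and at 4.07 and 104 CPM in sham (log2 difference 2.92, SE 0.206). Mmp14, a membrane-bound collagenase, was at 205 and 258 against 39.4 and 44.8 CPM (log2 difference 2.55). Tgfbi was at 981 and 855 against 256 and 225 CPM (log2 difference 2.02), and Ecm1 at 196 and 239.8 against 62.4 and 54.0 CPM (log2 difference 2.00). Timp1, Vcan, Adam8 and the neutrophil collagenase Mmp8 were the other members that rose. Thbs1 and Mmp14 passed whichever sample was left out, the other 6 had adjusted p of 0.0529 to 0.202 without the PSNL males, and 3 of the 8 held with library as a term. DESeq2 called 9 higher and 0 lower.

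Osteopontin (Spp1), a secreted matrix protein of foamy and wound macrophages, had the largest log2 difference of the lipid-associated genes but did not pass. It was at 7152 and 7664 CPM in PSNL, at 1124 and 436 CPM in crush and at 69.2 and 78.4 CPM in sham, with a log2 difference of 3.33 (SE 0.626, adjusted p = 0.0662 in edgeR and 1.61e-05 in DESeq2). Both PSNL samples lay above both crush samples, and the 2 crush samples differed from each other. Of the 20 members tested 6 rose (Lgals1, Lgals3, Cd9, Cd63, Plin2 and Ctsb) and 0 fell, while 1 had an unadjusted p under 0.05 for a fall and DESeq2 called 9 higher and 1 lower. Plin2, which coats lipid droplets, was at 708 and 821 against 287 and 311 CPM (log2 difference 1.45). Lgals1, encoding galectin-1, was at 1326 and 1387 against 463 and 375 CPM (log2 difference 1.78). None of the 6 calls held without the PSNL males (adjusted p 0.0729 to 0.233). Of 14 genes of cholesterol export and nuclear receptors, Msr1 and Nr1h3 rose, Msr1 at 268 and 261 against 54.3 and 21.7 CPM, and neither held without the PSNL females or males (adjusted p 0.129 to 0.257).

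Lysosomal genes rose in 9 of 21 members and fell in 2. Lgmn, a protease of the lysosome, was at 969 and 846 CPM in PSNL and at 509 and 503 CPM in crush (log2 difference 0.93), and Mitf and Tfec, which drive lysosomal genes, were among those that rose, with Lamp1, Cd68, Neu1, Atp6v1a and Atp6v0c. The median of the list was 0.51, and none of the 11 calls held without the PSNL females or without the PSNL males (adjusted p 0.0572 to 0.32), and 9 held without the crush males.

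Receptors and bridging molecules for dead cells were lower in 5 of 10 tested (Mertk, Gas6, Pros1, Itgb5 and Elmo1), and Olr1, a scavenger receptor for oxidized lipoprotein, was higher. Mertk, the kinase that recognises dying cells through Gas6 and Pros1, was at 29.0 and 28.7 CPM in PSNL and at 51.1 and 63.4 CPM in crush (log2 difference -0.90, SE 0.178, adjusted p = 0.0177). Gas6 was at 17.1 and 10.2 CPM in PSNL, at 33.5 and 26.3 CPM in crush and at 236 and 129.6 CPM in sham. Olr1 was at 30.9 and 46.4 against 4.52 and 3.71 CPM (log2 difference 3.37). None of these held without the PSNL males (adjusted p 0.0595 to 0.346) and 1 held without the PSNL females. DESeq2 called 3 of the 10 lower and did not call Mertk (adjusted p = 0.0594), which was also lost with sex as a term (adjusted p = 0.0526).

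Of 16 Fc receptor and complement genes 4 rose (C3, C3ar1, C5ar1 and Itgam) and 1 fell. C5ar1, the receptor of the anaphylatoxin C5a, was at 175 and 166 CPM in PSNL and at 36.6 and 33.4 CPM in crush (log2 difference 2.38, SE 0.158, adjusted p = 0.000679), and it passed whichever sample was left out. C3ar1, the receptor of C3a, was at 414 and 346 against 143 and 184 CPM (log2 difference 1.31), and C3 itself at 63.3 and 69.3 against 7.69 and 17.4 CPM. A complement component and both anaphylatoxin receptors were thus higher in PSNL. The calls other than C5ar1 were lost without the PSNL females or males (adjusted p 0.0801 to 0.317).

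Among 14 genes of alternative activation Arg1 and Ccl24 rose while Clec10a, Alox15 and Mgl2 fell, so that the list split by member, with a median of -0.02. DESeq2 called 3 higher and 5 lower, and the lowest log2 difference, -6.78, was that of a member that did not pass in edgeR. The list's summed level was 3492 and 4484 CPM in PSNL, 5530 CPM in the crush females and 2003 CPM in the crush males. Alox15, the lipoxygenase that eosinophils and some macrophages express, was at 3.81 and 2.55 CPM in PSNL and at 25.8 and 35.4 CPM in crush (log2 difference -3.25), with no UMI in sham. Mgl2 alone passed without each of the samples in turn, and the others had adjusted p of 0.0595 to 0.156 without the PSNL males.

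Enzymes of prostaglandins, leukotrienes and polyamines also split. Ptges and Pla2g7 of lipid mediators, and Arg1, Arg2, Odc1, Sms and the arginine transporter Slc7a2 of the path from arginine to polyamines, rose. Ptgs1, Hpgd, Hpgds, Alox5 and Alox15 fell. Odc1, the first enzyme of polyamine synthesis, was at 72.8 and 66.3 CPM in PSNL and at 19.9 and 18.6 CPM in crush (log2 difference 1.95). Hpgds, which makes prostaglandin D2, was at 26.2 and 22.8 against 106 and 114 CPM (log2 difference -2.08). Together 7 of 19 rose and 5 fell, of which 0 held without the PSNL males (adjusted p 0.0595 to 0.305), 6 without the PSNL females, and Hpgd (adjusted p = 0.0136) and Hpgds (adjusted p = 0.0216) with library as a term.

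Genes of resident nerve macrophages were mixed. Of 12 tested 3 rose, Folr2 and Pf4 among them, and 2 fell (Cd163 and Gas6), with 0 of 5 held without the PSNL males (adjusted p 0.0914 to 0.346). Lyve1 was too low to be tested, with no UMI in PSNL, 2.26 and 5.14 CPM in crush and 130.3 and 78.4 CPM in sham. Mrc1, the mannose receptor, was at 248 and 162 CPM in PSNL and at 281 and 165 CPM in crush, and at 1258 and 762 CPM in sham. The injured samples overlapped and were below sham in all 4 (log2 difference -0.04, SE 0.341).

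Genes shared by microglia and endoneurial macrophages were lower in PSNL in 7 of 10 tested and higher in 0, with a median log2 difference of -1.53. DESeq2 also called 7 lower and 0 higher, and 0 had an unadjusted p under 0.05 for a rise. Fcrls was at 53.3 and 25.1 CPM in PSNL, at 255 and 224 CPM in crush and at 293 and 271 CPM in sham, so that crush was near sham and PSNL below it (log2 difference -2.56). Siglech was at 3.33 and 2.13 against 21.3 and 26.0 CPM (log2 difference -3.10), Gpr34 at 14.3 and 7.02 against 52.0 and 59.7 CPM (log2 difference -2.40), and P2ry12, the receptor for ADP, at 8.57 and 4.68 against 22.2 and 28.8 CPM (log2 difference -1.96). Cx3cr1 and Cst3 also fell. Trem2, Tmem119 and Olfml3 did not pass. None of the 7 held without the PSNL males (adjusted p 0.0624 to 0.242), 3 held without the PSNL females, and Fcrls was also lost without the crush females (adjusted p = 0.0645).

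Of 14 monocyte genes 6 rose (Vcan, F10, Hp, Thbs1, S100a4 and S100a6), with a median log2 difference of 1.60 and DESeq2 calling 7 higher and 0 lower. Vcan was at 109 and 145 CPM in PSNL and at 4.52 and 13.7 CPM in crush (log2 difference 3.81). Hp, encoding haptoglobin, was at 79.0 and 108 against 8.59 and 16.6 CPM (log2 difference 2.95), and S100a6 at 2992 and 4132 against 1302 and 1056 CPM. Ly6c2, which marks classical monocytes, did not move with these. It was at 189 and 201 CPM in PSNL and at 41.6 and 282 CPM in crush, where the males were higher and the females lower than either PSNL sample (log2 difference 0.36, SE 1.11). Thbs1 alone held without the PSNL males (adjusted p of the others 0.0753 to 0.186).

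Among 21 lineage and transcription factor genes 2 rose, Cebpb among them. Cebpb was at 963 and 1313 CPM in PSNL and at 374 and 349 CPM in crush (log2 difference 1.75), and held with library as a term (adjusted p = 0.0348) but not without the PSNL males (adjusted p = 0.0739). Of 18 immediate early and heat shock genes Ier3, Fos, Jun and Dusp1 rose. Ier3 was at 596 and 1060 against 71.5 and 53.4 CPM (log2 difference 3.83) and passed whichever sample was left out, while the other 3 had adjusted p of 0.234 to 0.296 without the PSNL males and 1 of them 0.0807 without the crush males. Of 16 growth factor genes Vegfa, Hbegf, Gdf3 and Inhba rose and Vegfb fell, none without the PSNL males (adjusted p 0.116 to 0.24), and Bdnf had no UMI in the injured samples. Inhba, at 9.04 and 33.0 CPM in PSNL and 0.452 and 0 CPM in crush, was also lost without the crush females (adjusted p = 0.361) or the crush males (adjusted p = 0.259).

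Interferon-stimulated genes gave no call among 20 tested, with 0 at an unadjusted p under 0.05 in edgeR's test and 0 called by DESeq2, and with overlapping groups in all 20. The crush samples differed from each other here. The summed level of the list was 3184 and 3770 CPM in PSNL, 1213 CPM in the crush females and 6208 CPM in the crush males. Ifit2 was at 10.9 and 22.5 CPM in PSNL, at 0.452 CPM in the crush females and at 213 CPM in the crush males, and Ifi44 at 4.28 and 7.66 against 0 and 82.0 CPM. Without the crush males both were higher in PSNL (log2 differences 5.27 and 7.28), so the direction of these genes rested on 1 sample.

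Cell cycle genes were lower in PSNL, 8 of 19 tested (Top2a, Cdk1, Mcm3, Mcm5, Mcm6, Rrm2, Stmn1 and Hmgb2) and 0 higher, with a median log2 difference of -1.77. DESeq2 called 12 lower and 0 higher, and 0 had an unadjusted p under 0.05 for a rise. The list's summed level was 1310 and 1412 CPM in PSNL, 2093 and 1893 CPM in crush and 1389 and 1650 CPM in sham. In sum PSNL was thus near sham and crush above it. Top2a, the topoisomerase of dividing cells, was at 5.71 and 14.3 CPM in PSNL, at 64.2 and 56.0 CPM in crush and at 28.5 and 20.5 CPM in sham (log2 difference -2.37, SE 0.368, adjusted p = 0.0144). Stmn1 was at 14.8 and 27.4 against 89.1 and 88.2 CPM (log2 difference -1.92), and Mcm5, part of the replicative helicase, at 6.66 and 5.95 against 21.7 and 24.0 CPM. Top2a passed whichever sample was left out, and the other 7 were lost without the PSNL females or without the PSNL males (adjusted p 0.052 to 0.282). Mcm3 turned to a log2 difference of 0.77 with library as a term.

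Of 17 ribosomal protein genes 4 fell, among them Rps29, Rplp1 and Rpsa by between 0.49 and 0.55 on the log2 scale, and none held without the PSNL females or males (adjusted p 0.25 to 0.32), with 1 held without the crush males. Of 11 RNA quality genes AY036118 and Neat1 rose and mt-Co1 fell, while Gm42418 did not pass (log2 difference 0.29, adjusted p = 0.68). AY036118 was at 2108 and 1787 against 1005 and 1058 CPM, and its log2 difference of 1.01 turned to -0.88 with library as a term. Leaving out these technical genes before the fit gave 824 higher and 734 lower genes.

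**Figure D3:**
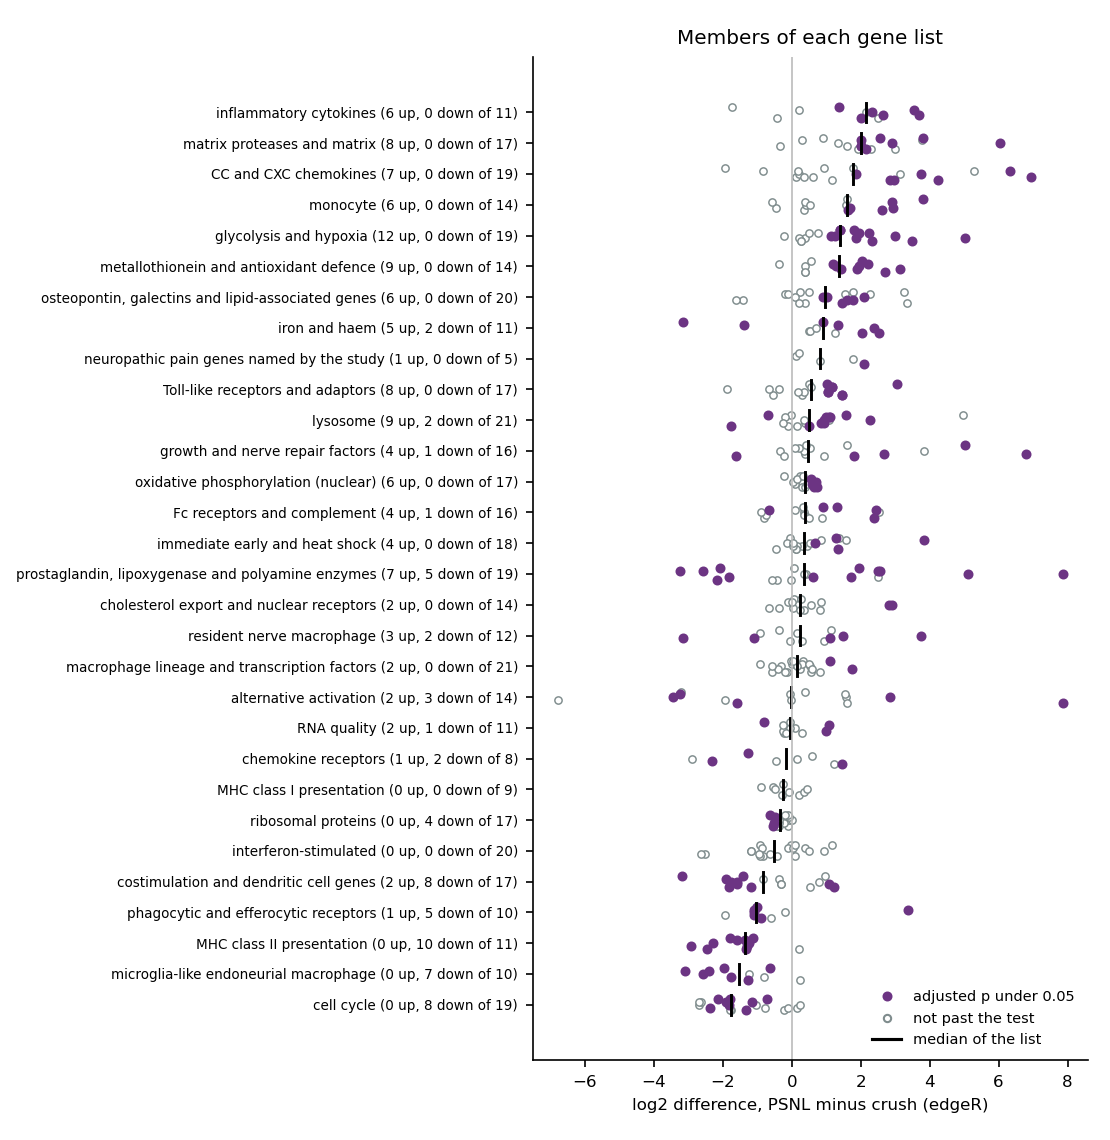
Log2 difference PSNL minus crush of every tested member of each gene list, with called members coloured and a bar at the list's median. The lists of MHC class II (median -1.35), microglia-like (-1.53) and cell cycle genes (-1.77) lie to the left of 0 and those of cytokines (2.15), matrix (2.02) and glycolysis with hypoxia (1.39) to the right.

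Cells were then split by C1q, the complement protein of mature tissue macrophages, at 2 UMIs of C1qa, C1qb and C1qc in sum, and those genes were not tested in these fits. The class with C1q RNA made up 37.6% and 38.7% of the cells in PSNL and 44.3% and 43.6% in crush, against 79.0% and 65.3% in sham. With C1q RNA 324 of 8419 genes (3.85%) were higher and 252 (2.99%) lower in PSNL. Without C1q RNA 906 of 8478 (10.7%) were higher and 744 (8.78%) lower. In both classes 399 genes were called in the same direction, and 6 in opposite directions (Dst, Mertk, Tmem119, Apoe, Slc38a6 and Csf1r). The difference between the classes, tested in a model with the sample as a block, passed for 359 of 9096 genes (3.95%), of which 82 had the higher PSNL minus crush difference in cells with C1q RNA. The median prior degrees of freedom of that model were 34.3, against 5.39 in the fit of all cells, with 2 residual degrees of freedom in each. Its small p-values thus rest largely on the spread shared over genes.

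The makeup of both classes differed between the injuries. The summed level of 8 macrophage markers, C1q genes left out, was 8806 and 9537 CPM in PSNL and 3297 and 4101 CPM in crush in that class, against 11717 and 11611 and 8898 and 7714 CPM in cells with C1q RNA. Dendritic cell markers summed to 905 and 718 against 1459 and 1707 CPM and eosinophil markers to 84.3 and 82.0 against 264 and 282 CPM in the class without C1q RNA. In cells with C1q RNA the 21 neutrophil markers summed to 620 and 702 CPM in PSNL and to 152 and 225 CPM in crush. Of 11 tested there, 6 were higher in PSNL and 0 lower. The 16 monocyte genes summed to 8049 and 10415 against 4534 and 2251 CPM in that class, and dendritic cell markers to 90.3 and 176 against 276 and 339 CPM. The part of this makeup in the differences between the classes was not tested.

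In cells without C1q RNA the list of osteopontin, galectins and lipid-associated genes rose in 15 of 20 members, and in cells with C1q RNA 2 rose and 1 fell. Spp1 was at 7748 and 7254 CPM in PSNL and at 61.8 and 12.9 CPM in crush among cells without C1q RNA, and at 6464 and 8202 against 2175 and 840.0 CPM among cells with it. PSNL cells of both classes were thus at like levels, and crush cells without C1q RNA were far lower than crush cells with it. Trem2, a lipid receptor of microglia and lipid-laden macrophages, was at 199 and 228 against 23.6 and 17.0 CPM without C1q RNA and at 468 and 475 against 528 and 598 CPM with it, and the log2 difference was 3.70 lower in cells with C1q RNA (adjusted p = 1.75e-13). Lysosomal genes showed the same split by count, 15 of 21 higher without and 1 of 21 higher with C1q RNA. Ctsb was at 2382 and 2300 against 464 and 311 CPM without C1q RNA, and at 5159 and 4807 against 3543 and 2996 CPM with it.

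Mertk changed direction between the classes. It was at 35.9 and 46.3 CPM in PSNL and at 98.1 and 121 CPM in crush among cells with C1q RNA (log2 difference -1.30), and at 23.1 and 15.4 against 3.64 and 2.93 CPM among cells without it (log2 difference 2.57). Tmem119 was at 25.6 and 24.6 against 50.4 and 92.6 CPM with C1q RNA and at 11.5 and 21.7 against 3.64 and 4.10 CPM without it. Both genes were low in the class without C1q RNA. The fall of Cx3cr1 was seen in cells with C1q RNA (250.3 and 143 against 484 and 686 CPM) and not in those without it (83.4 and 72.6 against 67.3 and 104 CPM), with a difference between the classes of -1.53 (adjusted p = 2.30e-05).

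Of the cytokine genes, Il1b and Tnf went the other way. Il1b was at 286 and 487 against 29.7 and 25.7 CPM in cells with C1q RNA (log2 difference 3.90) and at 569.8 and 922 against 175 and 277 CPM in cells without it (log2 difference 1.80), a difference of 2.10 between the classes (adjusted p = 3.14e-07). Tnf had log2 differences of 3.16 and 1.45 (difference between the classes 1.70, adjusted p = 0.0081), and the difference did not pass for Il1rn (0.62, adjusted p = 0.45) or Nlrp3 (0.67, adjusted p = 0.362). The fall of MHC class II was found in both, 9 of 11 genes with and 10 of 11 without C1q RNA, with medians of -1.56 and -1.44. H2-Aa had log2 differences of -1.35 and -1.39. Glycolysis and hypoxia genes rose in 9 of 19 and 12 of 19, and the microglia-like list fell in 7 of 10 with and in 5 of 8 without C1q RNA, where 2 others, Trem2 and Tmem119, rose.

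**Figure D4:**
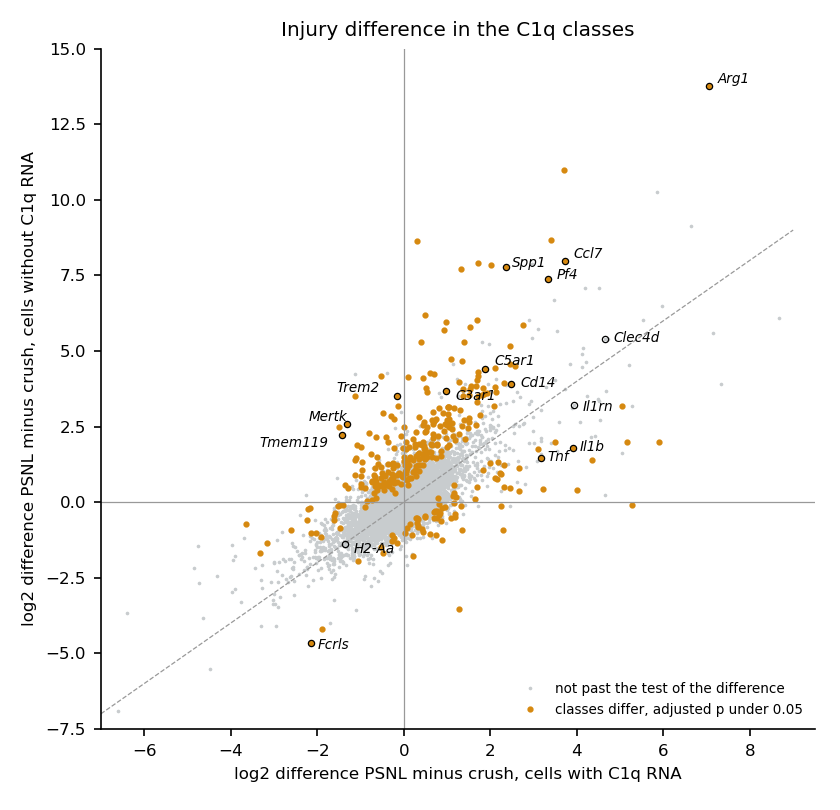
Log2 difference PSNL minus crush of each gene in cells with C1q RNA (horizontal axis) against cells without it (vertical axis), with genes whose classes differ at an adjusted p under 0.05 in orange and the dashed line where both are equal. Spp1, Trem2 and Mertk lie above the line and Il1b and Tnf below it, while H2-Aa lies on it at -1.35 and -1.39.

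Of 5 genes that the study names for neuropathic pain only Lgals3 passed in all cells. Lgals3, encoding galectin-3, was at 3410 and 4755 CPM in PSNL and at 1215 and 837 CPM in crush, against 741 and 837 CPM in sham (log2 difference 2.08, SE 0.269, adjusted p = 0.00998). It was lost without the PSNL males (adjusted p = 0.0882) and with sex as a term (adjusted p = 0.0508). Fabp5, a fatty acid binding protein, was at 1653 and 1476 against 672 and 300.4 CPM, which did not overlap, and did not pass (log2 difference 1.77, SE 0.455, adjusted p = 0.0837). Atf3, a stress-induced transcription factor, was at 408 and 454 against 360 and 162 CPM (log2 difference 0.81, SE 0.426, adjusted p = 0.282). Ccl3 and Ccl4, which attract monocytes, overlapped between the injuries. Ccl4 was at 278 and 474 against 439 and 253 CPM, and Ccl3 at 88.5 and 153 against 115 and 121 CPM. Among other genes of the study, Itgax was at 48.1 and 80.8 against 139 and 108 CPM and did not pass (log2 difference -0.82, adjusted p = 0.109), and Il2ra was at 16.2 and 15.5 against 10.9 and 19.99 CPM.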

How the data were processed

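Single-cell RNA libraries and hashtag reads of sorted nerve cells were used as UMI counts, the unit in which the authors deposited the matrices, made with Cell Ranger 6.0.0 on GRCm38, with Seurat 5.1.0 also named in the submitters' processing notes. Whether introns were counted is not given in the sources used here. A hashtag was called above 85 or 93 UMIs in the PSNL library and above 115 or 123 in the crush library, with the sham hashtag at most 50 or 42. Counts were summed per hashtag and fitted in edgeR 4.0.16 (R 4.3.3) with filterByExpr, TMM and robust quasi-likelihood tests, adjusted after Benjamini and Hochberg and called under 0.05. The SE is the log2 difference over the root of F, and CPM levels were not scaled by TMM. DESeq2 1.42.0 was an alternative, as were other filters, scalings, left-out samples and library or sex terms. The fit was checked on simulated data, where most small fold changes were missed and the share of false calls was above the nominal one.

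Named genes were the 15 largest rises and falls (50 CPM or more in the higher group, no overlap), up to 4 members a list by adjusted p, all members of lists of at most 12, and genes that the study names. Those printed, and other members that passed, were chosen after their values were seen. The lists and the comparison were chosen with earlier results of these data known. Aldoa, carried by 2 identifiers, was not used. Some members are counted in the lists and not reported here by name. A doublet caller (Scrublet in scanpy 1.11.5) marked 2 and 4 barcodes, while 713 and 516 carried several hashtags, and it was not used as a filter. Barcodes that hold 2 cells of the same hashtag cannot be seen from the hashtags, and their number was not tested.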

Additional observations from a re-analysis of the deposited data

Results flagged for a closer look

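For the genes below, the PSNL minus crush log2 difference of cells with C1q RNA differed from that of cells without it, in edgeR's test of the interaction with the sample as a block (adjusted p under 0.05). The value beside each gene is the log2 difference in cells with C1q RNA minus that in cells without it. A negative value means that PSNL exceeded crush by more, or fell short of it by less, in cells without C1q RNA.

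Genes of lipid-associated and microglia-like macrophages were Spp1 (-5.53), Trem2 (-3.70), Tmem119 (-3.78), Olfml3 (-4.47), Plin2 (-1.09), Cd9 (-1.35), Cd63 (-2.29), Ctsb (-2.02), Cx3cr1 (-1.53) and Csf1r (-1.92). Receptors for dead cells and scavenger or complement ligands, with a nuclear receptor, were Mertk (-3.86), Itgb5 (-1.99), Msr1 (-1.98), Nr1h3 (-2.63), C3ar1 (-2.75) and C5ar1 (-2.51). Lysosomal genes were Lgmn (-1.47), Lamp1 (-1.23), Cd68 (-1.04), Atp6v1a (-1.11), Mitf (-1.58) and Ctss (-0.50). Iron and antioxidant genes with a negative value were Slc11a1 (-1.48), Hmox1 (-1.13), Blvrb (-1.92), Fth1 (-0.87), Ftl1 (-1.27), Ftl1-ps1 (-1.11), Prdx1 (-1.07) and Prdx5 (-0.73), the ferritins being subject to shared reads. Chemokine and resident macrophage genes were Ccl2 (-2.35), Ccl7 (-4.21), Ccl24 (-3.92), Pf4 (-4.11) and Folr2 (-2.29). Arginine enzymes and transporters were Arg1 (-6.72) and Slc7a2 (-4.94), and Arg1 had 0 UMIs in both crush samples among cells without C1q RNA, so its value depends on the prior count and is no bound. The remaining genes with a negative value were Cd14 (-1.46), Ly96 (-1.47), Mmp14 (-1.76), Tgfbi (-0.90), Sdc4 (-1.66), F10 (-1.60), Cebpb (-0.69), Cd81 (-1.68), Cd209a (-1.58), Dst (-4.04), Slc38a6 (-2.54) and AY036118 (-0.78).

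A positive value, with more of an excess of PSNL in cells with C1q RNA, was found for the cytokine and chemokine genes Il1b (2.10), Tnf (1.70) and Ccl4 (1.67), for the early response genes and an inhibitor of NF-kappa B signalling Ier3 (1.90), Fos (1.36), Jun (0.80) and Tnfaip3 (1.21), for the monocyte and granulocyte genes Ly6c2 (2.51), Hdc (2.98), Il1r2 (2.01) and Mefv (1.36), and for Mt2 (2.26), Gsr (1.35) and Fcrls (2.25). Fcrls fell in PSNL in all cells, and its positive value means a smaller fall with C1q RNA.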

How the results depend on the processing

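Each alternative changed 1 choice and kept the rest, except that library as a term came with the sham samples and the looser cell filter moved both of its limits. The 2 that added barcodes with several hashtags or left out the top 6% of doublet scores were chosen after seeing the data. Against 843 higher and 752 lower genes, the counts were 1386 and 1185 with no filter on low counts, 550.0 and 476 for genes of at least 20 CPM on average, 366 and 319 with each cell thinned to 1000 UMIs, 353 and 224 without cells with markers of other types, 28 and 12 with library as a term, and 590.0 and 413 in DESeq2. With upper quartile scaling they were 706 and 919, so that more genes were lower than higher. The setting on markers of other types left out every cell with 2 or more UMIs of eosinophil, lymphoid, mast, Schwann, fibroblast or endothelial genes. It kept 197 of 383 and 357 of 750 PSNL cells, and 117 of 325 and 257 of 585 crush cells. Its lower counts thus also come with fewer cells and UMIs, and the part of other cell types in them was not tested. Leaving out 1 sample gave 26 to 1495 higher and 5 to 1442 lower genes. In cells with C1q RNA (324 and 252) the range was 134 to 877 and 105 to 749, with 219 and 133 in DESeq2. In cells without C1q RNA (906 and 744) it was 116 to 807 and 26 to 760.0, with 546 and 361 in DESeq2, and for the difference between the classes (359) it was 227 to 455.

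The labels give no replicate number, and the samples share only their sex. A replicate block by sex gave 374 higher and 297 lower genes in all cells, 214 and 165 in cells with C1q RNA and 797 and 643 in cells without it. The difference between the female and the male sample had a Pearson's r of 0.049 between PSNL and crush over 9763 genes.

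With library as a term the log2 difference turned for AY036118 (-0.88), Arg1 (-0.37), Cd209a (0.31), Irak3 (-0.76), Lamp1 (-0.061), Mcm3 (0.77), mt-Atp8 (-0.29), Pdpn (-0.49), Siglecf (2.27) and Zbtb46 (0.45), and without the crush males for Ifi44 (7.28) and Ifit2 (5.27), whose lowest values, without the crush females, were -3.54 and -3.44. The cause was not tested. With 2 samples an injury, an exact permutation test of a single gene cannot go below 0.333, and sham cells were few.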
